A study of Homo sapiens with 8 samples.

Results

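The transforming growth factor-β (TGF-β) pathway was followed through 9 named genes in Huh7, a human cell line derived from a hepatocellular carcinoma. The genes were taken by symbol as a pathway and form 9 of the 17076 genes listed for every library. They are the ligand TGFB1, the receptors TGFBR1 and TGFBR2, the signal-carrying SMAD2, SMAD3 and SMAD4, the inhibitors SMAD7 and SKIL, and the target gene ID1. SMAD7 is at the centre of the group because it has been described as a target of UPF1 in liver cancer.

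TGF-β binds TGFBR2, which recruits and phosphorylates TGFBR1, and the receptor pair phosphorylates SMAD2 and SMAD3. These join SMAD4, enter the nucleus and act on target genes, among them SMAD7, whose protein blocks the receptors and so closes a negative feedback loop. In liver the pathway restrains hepatocyte growth and drives fibrosis, and UPF1 is the RNA helicase at the core of nonsense-mediated mRNA decay (NMD).

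Poly(A) RNA was sequenced in 4 groups of 2 libraries. In the depletion experiment, cells that received UPF1 siRNA (siUPF1) were set against cells that received a scrambled siRNA (siControl). In the overexpression experiment, cells that received a MYC-UPF1 expression vector (MYC-UPF1) were set against cells that received the control MYC vector (MYC), where MYC is an epitope tag and not the oncogene. All 4 groups were transient transfections of the same line, so each value averages transfected and untransfected cells. The labels do not say whether the libraries of a group came from separate cultures, so p-values measure the spread between these libraries, which may be technical. A lower value in such bulk RNA may mean fewer cells with the transcript or less transcript per cell, which cannot be told apart. The siRNA used for sequencing is not named among those the study lists.

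The values are FPKM, fragments scaled to transcript length and library size, so levels can be set side by side between genes per length. Summed FPKM was between 403902 and 455592 per library, and the number of reads behind each value is unknown. UPF1 itself was at 44.5 and 47.4 FPKM in siControl, 20.7 and 21.9 in siUPF1, 45.2 and 57.4 in MYC, and 2835 and 2484 in MYC-UPF1. UPF1 followed the labels in every library. The cells carried the liver profile of the label: 8 of 8 hepatocyte-lineage markers were listed and summed to between 20200 and 23600 FPKM, with AFP, the fetal liver protein, the most abundant. Of 11 markers of stellate, fibroblast, endothelial and immune cells 6 were listed and summed to between 7.04 and 9.21 FPKM, with the lysosomal protein CD68 the most abundant.

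Across all genes, log2(FPKM + 1) of the siControl pair correlated at 0.9952 and of the siUPF1 pair at 0.9916. Replicate 1 of siUPF1 was closer to replicate 2 of siControl, at 0.9934, than to its own partner. In the overexpression experiment MYC replicate 1 correlated at 0.997 with MYC-UPF1 replicate 2, and MYC replicate 2 at 0.9964 with MYC-UPF1 replicate 1. Both values exceed the 0.9945 within MYC and the 0.9942 within MYC-UPF1, while MYC replicate 2 and MYC-UPF1 replicate 2 were the least alike pair of this experiment, at 0.9918. In the overexpression experiment no library had its own replicate as its closest neighbour.

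SMAD7 on GRCh37 (hg19) lies on the minus strand at chr18:46446223-46477335, and its canonical transcript has 4 exons, a GC content of 57.05% and a 3′UTR of 1519 bases. The other genes differ widely in these features. SKIL, on the plus strand at chr3:170075503-170114623, has a GC content of 33.56%, against a median of 48.2% over 13117 coding genes. TGFB1, on the minus strand at chr19:41836228-41859827, stands at the other end with 63.6%. ID1, on the plus strand at chr20:30193092-30194313, has only 2 exons and a GC content of 57.88%, close to that of SMAD7.

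Features that are known to make a transcript open to NMD were counted in the same annotation. None of the 9 canonical transcripts carried its 3′UTR on more than 1 exon, so none had an annotated splice junction downstream of the stop codon. The 3′UTR was longer than the median of 1286 bases in 7 genes and shorter in TGFB1 (729 bases) and ID1 (416 bases). Start triplets (ATG) upstream of the coding sequence numbered 6 in SKIL, 4 in SMAD7, 2 in SMAD4 and 1 in TGFBR2, and 0 in the other 5 genes.

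From the genome, 2 stretches are shown that hold SMAD motifs, at the gene that closes the feedback loop and at the gene that starts it. The first is the palindromic SMAD-binding element GTCTAGAC and the second the longer SMAD box AGCCAGACA, both searched on either strand within 2000 bases of the canonical start. The window was widened to this size after a narrower one held no match at SMAD7. Capitals mark the motif, and each sequence is written along the strand of its gene.
SMAD7 (GRCh37, minus strand, chr18:46478577-46478606): agcgacagggtGTCTAGACggccacgtgac
TGFB1 (GRCh37, minus strand, chr19:41859753-41859781): tccgcggagcAGCCAGACAgcgagggccc
Relative to the first base of the canonical transcript, the SMAD7 match begins at an offset of -1260, upstream of the gene, and the TGFB1 match at an offset of 56, in the 5′UTR within the first exon. GTCTAGAC occurs in 2.14% of 13117 windows of this size and AGCCAGACA in 5.87%. Each motif was found at 1 of the 9 genes. A match says only that the letters are present, and no factor binding was measured.

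Averaged over the 8 libraries, ID1 stood far above the rest with 234 FPKM, followed by TGFBR2 with 34.7. The ligand TGFB1 (9.58), SMAD7 (7.77), SMAD3 (7.42) and SKIL (6.38) lay within a narrow band, then came SMAD4 (4.92) and TGFBR1 (4.79). SMAD2 was lowest with 1.26 FPKM. Its canonical transcript is annotated with a 3′UTR of 32870 bases, and a level per length depends on the transcript model used. Thus the type II receptor was listed at a higher level than the type I receptor, and SMAD3 higher than SMAD2, in each of the 8 libraries.

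UPF1 depletion was examined first, since a transcript degraded through UPF1 would be more abundant without it. The fit was made in limma on log2(FPKM + 1) and took in every gene that averaged at least 0.5 FPKM over the compared libraries. All log2 differences are on this scale, on which a change at low FPKM appears smaller than it is. An exact two-sided permutation test of 2 libraries against 2 cannot go below 0.333. In siUPF1, TGFB1 and TGFBR1 rose at an unadjusted p under 0.05, the threshold of the study, while SMAD7 did not rise and lay below its control. Thus 2 of the 9 genes passed, both higher, whereas 16.0% of the 13535 genes tested passed in that direction and 5.51% in the other, 21.5% in all. No member passed at an adjusted p under 0.05, which 5 genes or 0.0369% of those tested did. That last count was unstable, at 4546 without siUPF1 replicate 1, 5 of them members, and 1269 without siUPF1 replicate 2.

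SMAD7 was at 9.32 and 8.98 FPKM in siControl and at 7.94 and 8.36 in siUPF1. Both depleted libraries lay below both controls, with means of 9.15 ± 0.241 (SD, n = 2) and 8.15 ± 0.297 (SD, n = 2). The log2 difference was -0.15 with a standard error of 0.0908, at adjusted p = 0.366 in limma. Leaving out any 1 library kept it between -0.18 and -0.12. Under these conditions no increase of SMAD7 mRNA on loss of UPF1 was measured.

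The ligand and the type I receptor moved upward. TGFB1, the main secreted ligand of the pathway, was at 8.35 and 9.44 FPKM in siControl and at 10.5 and 12.2 in siUPF1. TGFBR1, the kinase that phosphorylates SMAD2 and SMAD3, was at 3.84 and 4.27 FPKM in siControl and at 5.76 and 5.13 in siUPF1. In both genes the depleted libraries lay above the controls. The log2 differences were 0.31 ± 0.112 (standard error) for TGFB1, with adjusted p = 0.183, and 0.35 ± 0.102 for TGFBR1, with adjusted p = 0.142. Neither passed the unadjusted threshold without siControl replicate 1, where adjusted p = 0.729 for TGFB1 and adjusted p = 0.637 for TGFBR1. In the single fit of all 8 libraries TGFB1 did not pass either, with adjusted p = 0.332.

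The remaining genes did not pass the threshold. TGFBR2, which binds the ligand, was at 37.9 and 41.7 FPKM in siControl and at 35.0 and 32.7 in siUPF1, a log2 difference of -0.23 ± 0.0981 at adjusted p = 0.242. TGFBR2 was past the unadjusted threshold in some alternative settings, among them quantile normalization, median centring and a single fit of all 8 libraries. It did not pass with the replicate number as a block, and its difference ran from -0.29 to -0.16 when 1 library was left out. SKIL, a nuclear corepressor of SMAD complexes, was at 8.90 and 9.30 FPKM in siControl and at 8.70 and 6.89 in siUPF1, with a log2 difference of -0.21 at adjusted p = 0.348. Most of the SKIL difference came from replicate 2 of siUPF1, without which it was -0.058. ID1, a helix-loop-helix inhibitor of differentiation and a target of SMAD signalling, was at 285 and 283.8 FPKM in siControl and at 263.9 and 269.6 in siUPF1, a log2 difference of -0.092 at adjusted p = 0.561. The 3 genes lay below their controls in both depleted libraries without passing the test.

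The transcripts of the signal-carrying SMAD proteins did not pass the test. SMAD2 was at 1.33 and 1.29 FPKM in siControl and at 1.41 and 1.42 in siUPF1, with a log2 difference of 0.064. SMAD3 overlapped between the groups, at 6.73 and 7.43 against 7.37 and 7.79 FPKM. SMAD4, the common partner of both, also overlapped, at 5.81 and 5.30 FPKM against 5.73 and 4.05. Its log2 difference was -0.17 with all libraries but 0.039 without siUPF1 replicate 2, so 1 library set its sign.

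By position, 3 genes (SMAD2, TGFBR1 and TGFB1) had both depleted libraries above both controls, 4 (SMAD7, TGFBR2, SKIL and ID1) had both below, and 2 overlapped. Over all genes tested, 56.0% did not overlap, 37.5% with siUPF1 higher and 18.5% with it lower. The median log2 difference of the 9 genes was -0.0921 and that of all genes tested 0.0565.

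In this comparison the size and sign of a difference also followed the base composition of the transcript. Over 12510 genes, the log2 difference correlated with transcript GC content at a Spearman coefficient of 0.564, given as a description across genes of the same 4 libraries. The coefficient was -0.451 in overexpression, 0.589 between the 2 control groups and 0.63 for the difference between the responses to depletion and overexpression. Genes within 1 percentage point of the GC content of SMAD7, 743 in all, had a median log2 difference of 0.145, so SMAD7 lay below genes of like composition. TGFB1 at 0.31 lay near the median of 0.242 of its own GC neighbours, while TGFBR1 at 0.35 stood above a median of -0.0783.

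When the trend with GC content and length was removed within each library, 4 of the 9 genes passed the unadjusted threshold, beside 23.9% of 12510 genes, and 3.55% passed the adjusted one. SMAD7 then fell by 0.32 on the log2 scale at adjusted p = 0.0568, ID1 by 0.24 at adjusted p = 0.0942 and TGFBR2 by 0.27 at adjusted p = 0.0769. TGFBR1 rose by 0.41 at adjusted p = 0.0302, and with the replicate number as a block in the same fit at adjusted p = 0.0563. TGFB1 did not pass and kept a log2 difference of only 0.055, at adjusted p = 0.64. Whether the trend arose in the cells or in library preparation was not tested.

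**Figure D1:**
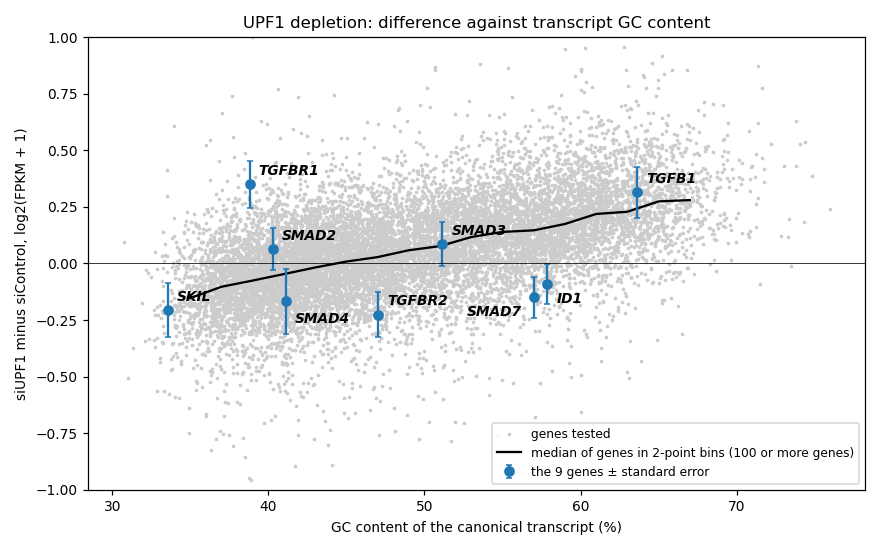
Log2 difference of siUPF1 minus siControl on log2(FPKM + 1) (vertical axis, shown from -1 to 1) against GC content of the canonical transcript in percent (horizontal axis). Grey points are genes, the black line joins medians of 2-point bins with at least 100 genes, and blue points with standard error bars are the 9 genes; SMAD7, ID1 and TGFBR2 lie below the line, TGFBR1 lies above it and TGFB1 lies close to it.

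UPF1 overexpression was examined next, with UPF1 raised to 2659 ± 248 FPKM (SD, n = 2) from 51.3 ± 8.65 (SD, n = 2) in the vector control. None of the 9 genes passed an unadjusted p under 0.05, a threshold passed by 1.43% of 13251 genes, 189 in all, 0.619% higher and 0.807% lower. UPF1 was the only gene of these, 0.00755%, that passed at an adjusted p under 0.05, and the adjusted p of each of the 9 genes rounded to 1. In 8 of the 9 genes the libraries of the 2 groups overlapped, whereas 20.7% of all genes tested did not overlap, 8.88% with MYC-UPF1 higher and 11.8% with it lower.

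SMAD7 was at 6.12 and 7.78 FPKM in MYC and at 7.12 and 6.52 in MYC-UPF1. The MYC-UPF1 values thus lay inside the span of the MYC pair, and the means were 6.95 ± 1.17 (SD, n = 2) and 6.82 ± 0.427 (SD, n = 2). The log2 difference was -0.017 with a standard error of 0.135, and leaving out any 1 library gave between -0.17 and 0.13. No change of SMAD7 could be told from the spread of these libraries. The span comes from point estimates and is no limit of detection, so a somewhat larger change could also have gone unseen.

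ID1, TGFB1, SKIL and TGFBR1 had the same pattern of wide spread and near-equal means. ID1 was at 174.9 and 222.1 FPKM in MYC and at 196.1 and 177 in MYC-UPF1. TGFB1 was at 7.50 and 11.1 FPKM in MYC and at 10.3 and 7.40 in MYC-UPF1, and SKIL at 4.75 and 3.98 against 3.48 and 5.02. TGFBR1 was at 5.47 and 4.13 FPKM in MYC and at 4.31 and 5.43 in MYC-UPF1. In each of these genes MYC replicate 1 was closer to MYC-UPF1 replicate 2 than to its own partner. MYC replicate 2 was likewise closer to MYC-UPF1 replicate 1, although for ID1 this MYC-UPF1 library lay nearer to the other low values.

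SMAD2 was at 1.25 and 1.11 FPKM in MYC and at 1.06 and 1.24 in MYC-UPF1, SMAD3 at 7.12 and 7.90 against 7.58 and 7.46, and SMAD4 at 4.70 and 4.51 against 4.31 and 4.91. Their log2 differences were no larger than 0.02 in size. TGFBR2 was the exception to the overlap, at 31.1 and 32.0 FPKM in MYC and at 32.3 and 34.8 in MYC-UPF1. Its log2 difference of 0.085 ± 0.0899 did not pass.

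**Figure D2:**
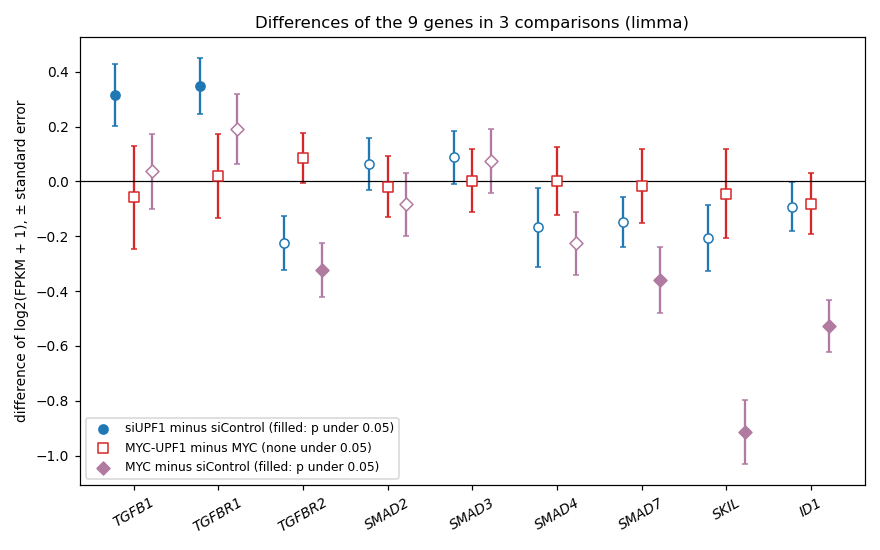
Difference on log2(FPKM + 1) with its standard error (vertical axis) for the 9 genes (horizontal axis) in siUPF1 minus siControl (circles), MYC-UPF1 minus MYC (squares) and MYC minus siControl (diamonds), filled where p is under 0.05 in limma. Filled circles mark TGFB1 and TGFBR1, no square is filled, and filled diamonds mark TGFBR2, SMAD7, SKIL and ID1.

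Whether depletion and overexpression of UPF1 acted differently on a gene was tested as the difference between the 2 responses over all 8 libraries. Of the 9 genes only TGFBR2 passed an unadjusted p under 0.05, against 15.2% of 13412 genes tested, 11.8% above 0 and 3.4% below. At the adjusted threshold 0.0224% of genes passed and no member. TGFBR2 was lower after depletion and slightly higher after overexpression, and the responses differed by -0.31 ± 0.127 at adjusted p = 0.292. TGFBR2 passed in only 3 of the 8 fits that left out 1 library, and with the replicate number as a block no member passed. Without siControl replicate 2 it was -0.24, without siUPF1 replicate 2 -0.26, without MYC replicate 1 -0.29, without MYC replicate 2 -0.33 and without MYC-UPF1 replicate 2 -0.26. For SMAD7 the difference between the responses was -0.13 ± 0.165 at adjusted p = 0.715. With the GC and length trend removed it was -0.36, past the unadjusted threshold, as 16.4% of 12420 genes then were, but with adjusted p = 0.118. TGFBR1 also passed the unadjusted threshold then, at 0.41 with adjusted p = 0.0992, as did TGFBR2 at -0.35 with adjusted p = 0.0673.

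The largest differences of the group lay between the 2 control states. MYC minus siControl compares a vector with a scrambled siRNA, each in its own experiment, so reagent and experiment cannot be told apart. This comparison shares siControl with the depletion and MYC with the overexpression comparison. In MYC, SKIL, ID1, SMAD7 and TGFBR2 were lower and passed both an unadjusted and an adjusted p of 0.05. That is 4 of the 9 genes, against 25.6% of 13359 genes lower and 15.4% higher at the unadjusted threshold, and 29.1% in either direction at the adjusted one.

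SKIL fell by 0.91 on the log2 scale, from 9.10 ± 0.282 FPKM (SD, n = 2) to 4.37 ± 0.544 (SD, n = 2), at an adjusted p of 1.63e-05. After removal of that trend it fell by 0.59, at an adjusted p of 0.000693, and the 107 genes of like GC content had a median of -0.337. ID1 fell by 0.53, from 284.4 ± 0.873 FPKM (SD, n = 2) to 198.5 ± 33.4 (SD, n = 2), at an adjusted p of 0.000508. Both are transcribed in response to SMAD complexes.

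SMAD7 fell by 0.36, from 9.15 to 6.95 FPKM, at adjusted p = 0.0296. It did not pass without siControl replicate 1, at -0.34 with adjusted p = 0.27, or without MYC replicate 1, at -0.21 with adjusted p = 0.0981. SMAD7 also lost its adjusted call, but not its unadjusted one, with quantile normalization (adjusted p = 0.114), with median centring (adjusted p = 0.102), in a single fit of all 8 libraries (adjusted p = 0.0584), without an FPKM minimum (adjusted p = 0.12) and without siControl replicate 2 (adjusted p = 0.206). Without an FPKM minimum only 1 of the 9 genes passed the adjusted threshold. After removal of the GC and length trend 5 did, beside 3503 of 12367 genes. SKIL, ID1, SMAD7 and TGFBR2 were lower there and TGFBR1 higher, at 0.39 (adjusted p = 0.00844 in limma). SMAD7 then stood at -0.49 (adjusted p = 0.00223). TGFBR2 fell by 0.32, from 39.8 ± 2.73 FPKM (SD, n = 2) to 31.6 ± 0.592 (SD, n = 2), at an adjusted p of 0.0186. It lost the adjusted call without siControl replicate 1 (adjusted p = 0.101) and both calls without siControl replicate 2, at -0.26 (adjusted p = 0.342). SKIL and ID1 passed the unadjusted threshold in all 4 fits that left out 1 library. In SMAD2 and SMAD4 both MYC libraries also lay below both siControl libraries without passing the test, which makes 6 of 9 genes, against 41.3% of all genes that lay below and 66.9% that did not overlap. TGFB1, TGFBR1 and SMAD3 overlapped.

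In 4 of these genes the division held over all 8 libraries, whereas the siRNA and vector ranges of TGFBR2 and SMAD4 overlapped. SMAD7 was between 7.94 and 9.32 FPKM in the 4 siRNA libraries and between 6.12 and 7.78 in the 4 vector libraries. ID1 was between 263.9 and 285 against 174.9 and 222.1, and SKIL between 6.89 and 9.30 against 3.48 and 5.02. SMAD2, with 1.29 to 1.42 against 1.06 to 1.25, was the fourth gene whose ranges did not meet. Thus 4 of the 9 genes lay lower in all vector libraries, beside 21.4% of 13412 genes with a mean of at least 0.5 FPKM. In SMAD7, SKIL and ID1 the order of the group means was siControl, siUPF1, MYC and MYC-UPF1, with the libraries of the last pair overlapping and those of the other neighbours apart.

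**Figure D3:**
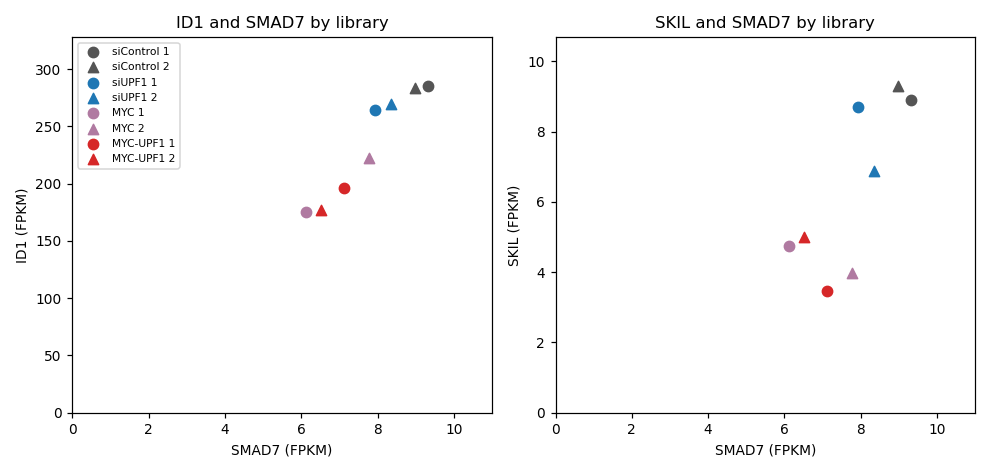
Level of ID1 (left, vertical axis, FPKM) and SKIL (right, vertical axis, FPKM) against that of SMAD7 (horizontal axes, FPKM) in the 8 libraries, with colour for the group and shape for the replicate. ID1 rises with SMAD7 through all 8 libraries, whereas SKIL splits into a siRNA and a vector cluster and, among the 4 vector libraries, the 2 with more SMAD7 have less SKIL.

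The genes whose profile over the 8 libraries was most like that of SMAD7 were found by Pearson's r of log2(FPKM + 1) among 13411 genes. They were the zinc finger gene ZNFX1 (0.98), DNAJC30 (0.974), MPV17L (0.972), C17orf58 (0.967) and ZNF669 (0.966). ID1 came next, at rank 6 with 0.964. These coefficients are descriptions over 8 libraries that form 2 clusters, siRNA and vector, and share their library scaling. ZNFX1, for example, was at 5.64 and 5.59 FPKM in siControl, 5.19 and 5.36 in siUPF1, 4.26 and 5.31 in MYC, and 4.71 and 4.38 in MYC-UPF1, so MYC replicate 2 was its high vector library as for SMAD7.

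Among the 9 genes themselves SMAD7 went with SKIL at 0.721 and TGFBR2 at 0.677. Its coefficient with TGFB1 was 0.459, with SMAD2 0.403, with SMAD4 0.392, with SMAD3 -0.135 and with TGFBR1 -0.58. TGFBR1 was the gene that ran most against SMAD7, with its 3 highest libraries in siUPF1 replicate 1, MYC replicate 1 and MYC-UPF1 replicate 2. SKIL had its closest partner in SMAD2, at 0.832.

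Further genes of the pathway were taken from 6 lists of 86 genes, of which 73 are listed in the tables and 64 could be tested. In depletion 13 of the 64 passed an unadjusted p under 0.05, 7 higher and 6 lower, a share that stands beside 21.5% of all genes. The median of the 64 was -0.0355 and that of all genes 0.0565. The split depends on scaling: with quantile normalization 3 were higher and 12 lower, with median centring 4 and 11, and after removal of the GC and length trend 3 and 16. Over all genes the split went from 2162 higher and 746 lower to 1417 and 1408 with quantile normalization. None passed the adjusted threshold, although 1, the SMAD corepressor SKI, named after its values were seen, did with that trend removed, at -0.42 and adjusted p = 0.0286. Calls among the 64 numbered 2 without siControl replicate 1, 5 without siControl replicate 2, 13 without siUPF1 replicate 2 and 25 without siUPF1 replicate 1. Of these, 0, 1, 3 and 20 also passed the adjusted threshold. Over all genes the same fits gave 1443, 1716, 2922 and 5901 calls, of which 121, 172, 1269 and 4546 passed the adjusted threshold.

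The bone morphogenetic protein (BMP) arm, which signals through SMAD1, SMAD5 and SMAD9, had 3 of 12 tested genes lower in siUPF1 and 0 higher, with a median of -0.2, beside 5.51% of all genes lower and 16.0% higher. Of the 3, only ID2 passed whichever library was left out, with -0.33 without siUPF1 replicate 2 and -0.81 without siUPF1 replicate 1. ID2, a relative of ID1, was at 86.0 and 94.0 FPKM in siControl and at 71.3 and 51.0 in siUPF1, and fell by 0.57 ± 0.158 at adjusted p = 0.132. ID4 fell by 0.34 ± 0.0926 at adjusted p = 0.128, from 7.86 and 7.88 FPKM to 6.26 and 5.76. HAMP, which encodes the iron hormone hepcidin, fell by 0.53 ± 0.193 at adjusted p = 0.191, but was at 2.61 and 1.43 FPKM in siControl, so its own controls differed most. Without siControl replicate 1 the difference of HAMP was -0.24 and did not pass, and ID4 did not pass without either siControl library, at -0.34 each. ID1 belongs to the same family and did not pass. ID2 at -0.50, ID4 at -0.30 and HAMP at -0.63 still passed the unadjusted threshold once the GC and length trend was removed. ID1 then passed it too, at -0.24.

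Among ligands and genes of ligand activation 5 of 10 passed, 3 higher and 2 lower, beside 16.0% of all genes higher and 5.51% lower. LTBP3 and LTBP1, which anchor latent TGF-β in the matrix, rose by 0.41 ± 0.149 and 0.35 ± 0.111 on the log2 scale, with adjusted p = 0.191 and adjusted p = 0.159. Neither passed without siControl replicate 1, and LTBP3 was at 0.19 without siUPF1 replicate 2, also short of the threshold. The proprotein convertase FURIN rose by 0.28, while the ligand TGFB2 fell by 0.28 and the activator THBS1 by 0.27. The latter 3 were named after their values were seen, and none of them passed without siControl replicate 1. LTBP3 and FURIN have GC contents of 67.7% and 62.0%. After removal of the GC and length trend LTBP3 kept a log2 difference of 0.079 at adjusted p = 0.54. LTBP1 still passed the unadjusted threshold then, at 0.23.

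Of 16 tested inhibitors and turnover genes 1 passed in depletion, beside 21.5% of all genes. It was SMAD6, the inhibitory SMAD related to SMAD7, which was at 7.81 and 7.34 FPKM in siControl and at 9.15 and 10.9 in siUPF1, and rose by 0.36 ± 0.109 at adjusted p = 0.148. Thus the 2 inhibitory SMAD genes stood on opposite sides of their controls, SMAD6 above and SMAD7 below. With the GC and length trend removed SMAD6 no longer passed, at 0.16 with adjusted p = 0.266, nor did it without siControl replicate 2, at 0.32.

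Of 14 tested target genes 3 rose in depletion, beside 16.0% of all genes, GADD45B by 0.36 ± 0.105, ANGPTL4 by 0.30 ± 0.12 and, named after its values were seen, BHLHE40 by 0.24. GADD45B, a stress-response gene, was at 7.88 and 8.94 FPKM in siControl and at 10.5 and 11.7 in siUPF1, and did not pass without siControl replicate 1, at 0.28. ANGPTL4 ranged from 0.16 to 0.43 over the 4 fits that left out a library, and passed in 1 of them. With the GC and length trend removed ANGPTL4 kept only 0.049, at adjusted p = 0.77. GADD45B still passed the unadjusted threshold then, at 0.21. Among 6 partners of SMAD proteins RUNX1 fell by 0.25, also named after its values were seen, and 0 of 6 other receptors and co-receptors passed. Neither BHLHE40 nor RUNX1 passed without siControl replicate 1.

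In overexpression 2 of the 64 genes passed, beside 1.43% of all genes. GADD45B was at 3.90 and 5.86 FPKM in MYC and at 7.14 and 6.71 in MYC-UPF1, and rose by 0.45 ± 0.162. Without MYC replicate 1 its difference was 0.21 and did not pass. HAMP was at 0.916 and 1.46 FPKM against 0.574 and 0.859, and fell by 0.34 ± 0.143. It did not pass without MYC replicate 2, at -0.16, or without MYC-UPF1 replicate 1, at -0.22. Both had an adjusted p that rounded to 1.

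**Figure D4:**
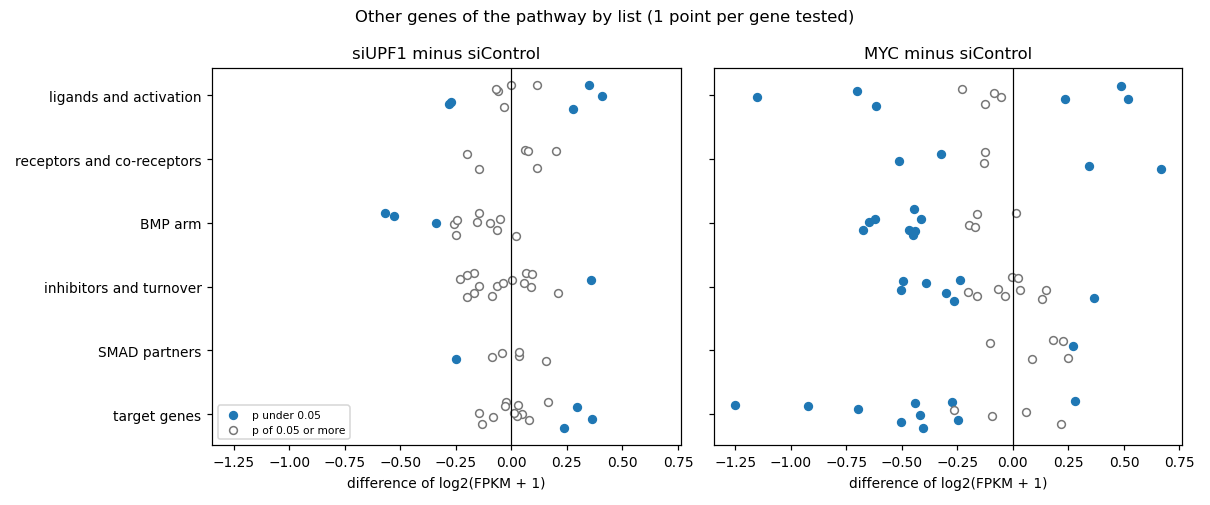
Difference on log2(FPKM + 1) (horizontal axes) of the 64 tested genes of the 6 further lists (rows, 1 point per gene, spread vertically for legibility) in siUPF1 minus siControl (left) and MYC minus siControl (right), filled where p is under 0.05 in limma. On the left 7 filled points lie above 0 and 6 below, and on the right 8 lie above and 28 below, with all 8 of the BMP arm below 0.

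Between the control states 36 of the 64 genes passed, 8 higher and 28 lower in MYC, beside 40.9% of all genes. At the adjusted threshold 32 passed, beside 29.1% of all genes, and the median of the 64 was -0.184 against -0.0566 for all genes tested. The direction of the split held with median centring, with 13 higher and 24 lower, although all genes then went from 2052 higher and 3416 lower to 3180 and 2276.

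Target genes made up 9 of the falls, with 1 of 14 higher, beside 25.6% of all genes lower and 15.4% higher. CDKN2B, a cell cycle inhibitor induced by TGF-β, fell by 0.92 from 4.28 and 4.63 FPKM to 1.81 and 1.94, and GADD45B fell by 0.70. For GADD45B, leaving out replicate 1 of MYC gave -0.45 and leaving out replicate 2 gave -0.94. The exception was the matrix protein FN1, named after its values were seen, which rose by 0.28.

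In the BMP arm 8 of 12 tested genes were lower in MYC and 0 higher, beside 25.6% of all genes lower and 15.4% higher. ID4 fell by 0.67 ± 0.116 at an adjusted p of 0.000369 and the signal carrier SMAD5 by 0.65 ± 0.122 at 0.000734. Among ligands and activators 3 fell and 3 rose, with THBS1 lower by a log2 difference of -1.15 ± 0.125, from 13.2 and 14.9 FPKM to 4.94 and 6.64, and TGFB2 by -0.70 ± 0.117. The activin receptor ACVR2B went the other way and rose by 0.67 ± 0.12, from 2.07 and 1.97 FPKM to 4.18 and 3.44. Of the 8 hepatocyte-lineage markers 5 were higher in MYC (TF, SERPINA1, APOB, APOA1 and TTR), 1 was lower (FGB) and 2, AFP and ALB, did not pass. Of 4 tested markers of stellate, fibroblast, endothelial and immune cells 1 was higher, PDGFRB, at 0.569 and 0.777 FPKM in siControl and 1.07 and 0.962 in MYC. TF was at 96.4 and 106 FPKM in siControl and at 153 and 147 in MYC, and FGB at 303.7 and 329 against 278.4 and 256.4. The part of these markers in the differences of the pathway genes was not tested.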

How the data were processed

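Stranded, paired-end libraries were made from poly(A) RNA of Huh7 cells. The authors trimmed reads (Trimmomatic 0.38), aligned them to hg19 with HISAT2 2.1.0 and assembled transcripts with StringTie 1.3.4d against NCBI annotation. The deposited FPKM values hold no read number: among 638 genes under 0.1 FPKM no ratio between libraries was shared by more than 0.47%, so depth and counting error are unknown. How genes were selected is not given in the sources used here.

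The 9 genes and the further lists were chosen with earlier results of these data known. log2(FPKM + 1) was fitted with limma 3.58.1 (lmFit, eBayes with trend) under R 4.3.3, with Benjamini-Hochberg adjustment over all genes tested. From the further lists, up to 8 genes per comparison were named by the largest difference at p under 0.05 with no overlap of libraries. For the difference between responses, overlap was not used. A gene that this rule names is not reported here. The fit was tested on simulated data. Replicate numbers gave deviations that correlated at -0.123 in depletion and -0.567 in overexpression. Transcript features came from GENCODE release 44 on GRCh37 for 15263 genes. Alternatives were another pseudocount, other FPKM minimums, quantile normalization, median centring, a loess correction of every library for GC content and transcript length (span 0.5), a single fit, eBayes without trend, a replicate block and each library left out. Tables and plots were made in Python 3.11.15 (matplotlib 3.10.9, pandas 2.3.3).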

Additional observations from a re-analysis of the deposited data

Results flagged for a closer look

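The response to depletion differed from the response to overexpression at an unadjusted p under 0.05 in 8 pathway genes, none at an adjusted p under 0.05. These are 1 of the 9 genes and 7 of the 64 tested from the further lists, beside 15.2% of all genes tested. Among the 9 genes this was TGFBR2, with a difference between the responses of -0.3113 on the log2 scale. In the BMP arm it was ID2 (-0.5534), ID4 (-0.3711) and the receptor BMPR1A (-0.3608), which was at 9.29 and 10.2 FPKM in siControl, 8.70 and 7.34 in siUPF1, 10.2 and 9.58 in MYC, and 10.1 and 11.3 in MYC-UPF1. For the ligand TGFB2 the difference was -0.4033, from 2.38 and 2.73 FPKM in siControl to 2.02 and 1.83 in siUPF1, and from 1.12 and 1.25 in MYC to 1.32 and 1.43 in MYC-UPF1. Differences above 0 were found for SMAD6 (0.593), FURIN (0.4588) and ANGPTL4 (0.4448). With the GC and length trend removed, FURIN at 0.13 (adjusted p = 0.459) and ANGPTL4 at 0.13 (adjusted p = 0.605) no longer passed the unadjusted threshold. SMAD6 at 0.33 (adjusted p = 0.175), ID2 at -0.45 (adjusted p = 0.191) and TGFB2 at -0.38 (adjusted p = 0.156) still did. So did TGFBR2 at -0.35 (adjusted p = 0.0673), ID4 at -0.31 and BMPR1A at -0.29. SMAD6 passed the unadjusted threshold whichever of the 8 libraries was left out. The 5 genes with a difference below 0 passed neither without siControl replicate 2 nor without siUPF1 replicate 2. TGFBR2 passed in 3 of the 8 fits, ID2 in 4, ID4 in 3, BMPR1A in 2, TGFB2 in 4, FURIN in 5 and ANGPTL4 in 4. The difference of ID2 was -0.32 without siUPF1 replicate 2, and that of FURIN 0.30 without MYC replicate 2. With the replicate number as a block TGFBR2, ID4, BMPR1A and TGFB2 did not pass.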

How the results depend on the processing

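Having only 2 libraries per group and an unknown depth limits these results. Where a value changed, the cause was not tested unless the setting itself tests fewer genes or libraries. With a mean FPKM of at least 5, fewer genes were tested. In depletion 1862 of 7898 genes passed an unadjusted p of 0.05, among them 1 of the 7 members tested. TGFBR1 and SMAD2 lay under that minimum in depletion and were not tested. In overexpression 49 of 7602 genes passed, with 1 of 37 from the further lists. For the difference between responses 1282 of 7753 passed, and between the control states 3514 of 7718. Without an FPKM minimum 409 genes passed in overexpression (1 of the further lists), and between the control states 1 of the 9 genes passed the adjusted threshold. In a single fit of all 8 libraries 1 gene of the further lists passed in overexpression, and in depletion TGFBR1 and TGFBR2 passed but not TGFB1.

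With the GC and length trend removed, 4 of the 9 genes passed in depletion, 1 of them adjusted, beside 2987 and 444 of 12510 genes, and SMAD7 stood at -0.32. Between the control states 5 of the 9 genes passed at either threshold, beside 5046 and 3503 of 12367 genes, and SMAD7 stood at -0.49. In overexpression 401 genes passed, 6 of the further lists, and signs turned for SMAD7 (0.036), SMAD2 (0.035) and TGFB1 (0.021). In the difference between responses 3 of the 9 genes passed, beside 2043 of 12420 genes, SMAD7 stood at -0.36, and signs turned for SMAD2 (-0.010) and SMAD3 (-0.063). SMAD3 also turned in depletion (-0.026) and between the control states (-0.038), as did TGFB1 there (-0.21). Quantile normalization turned SMAD2 in depletion (-0.022) and in the difference between responses (-0.0071).

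Replicate numbers mark no stated pairing, and same-numbered libraries did not deviate together. With the replicate number as a block, 2 of the 9 genes passed in depletion, 0 in overexpression, 0 for the difference between responses and 4 between the control states, beside 2586, 170, 1400 and 5919 of all genes, and SMAD7 in depletion had adjusted p = 0.475. With the replicate block and the GC and length trend removed together, the 9 genes gave 4 calls in depletion, 0 of them adjusted, and 3 for the difference between responses, with SMAD7 at -0.32 (adjusted p = 0.0829) and -0.36 (adjusted p = 0.242), and 4 genes of the further lists passed in overexpression and 12 for the difference between responses. In that setting the same signs turned as without the block, at the same values. A crossed replicate block, chosen after seeing the data, gave 1227 calls in overexpression (12 of the further lists, 0 of the 9 genes) and 3198 for the difference between responses (3 of the 9 genes).

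Leaving out 1 library in turn gave 1443 to 5901 calls in depletion, 216 to 777 in overexpression, 1065 to 3376 for the difference between responses and 3134 to 6831 between the control states. Of the 9 genes 0 to 5 passed in depletion at either threshold, with 0 at the unadjusted threshold without siControl replicate 1 and 5 without siUPF1 replicate 1. In overexpression 0 to 1 passed (ID1, without MYC replicate 1), for the difference between responses 0 to 2, and between the control states 2 to 5 at the adjusted threshold, with 2 without either siControl library. Genes of the further lists numbered 2 to 25 in depletion, 1 to 8 in overexpression and 2 to 13 for the difference between responses. SMAD7 ranged from -0.17 to 0.13 in overexpression, from -0.28 to 0.019 for the difference between responses and from -0.51 to -0.21 between the control states. Signs also turned in overexpression for SMAD2 (-0.081 to 0.040), SMAD3 (-0.063 to 0.069), SMAD4 (-0.077 to 0.077), TGFBR1 (-0.15 to 0.19), TGFB1 (-0.31 to 0.20), SKIL (-0.26 to 0.17) and ID1 (-0.25 to 0.091). They turned in depletion for SMAD4 (-0.37 to 0.039), for the difference between responses in SMAD4 (-0.37 to 0.038), SKIL (-0.37 to 0.051) and ID1 (-0.18 to 0.16), and between the control states in TGFB1 (-0.22 to 0.29).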
